A study of Mus musculus with 6 samples.

Results

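Dividing cells copy their DNA and then separate the copies, and 57 genes of this cycle were followed in mouse embryonic hearts: 26 mitosis genes, 20 DNA replication genes and 11 genes that control the step from growth (G1) into DNA synthesis (S). The list goes by gene name and function, and it was drawn up with earlier results of these data known. A gene was represented by the probe set naming it alone with the highest mean signal over the 6 arrays, which gave 56 of the 57 a value. Ccnb1 had no such probe set in the annotation used here. All 56 lay above the filter on low signal, within 12416 genes tested of 18193 named genes.

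Transcript levels come from Affymetrix 3' expression arrays of C57BL/6 mouse hearts at E12.5, mid-gestation. By label, 3 arrays are wildtype and 3 are Rhau KO. Rhau is the older name of Dhx36, an RNA helicase that unwinds G-quadruplexes, which are folds of guanine-rich RNA and DNA. The deleted part of the gene, and whether a Cre driver confined the deletion to some cells, are details not given in the sources used here. This comparison asks how transcripts of the heart differ when the helicase is deleted.

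The targeted gene ran against the labels. All 3 Dhx36 probe sets were higher under the Rhau KO label, by 1.41, 1.10 and 0.90 on the log2 scale. The brightest stood at 8.99, 8.88 and 8.71 (log2 signal) in wildtype-labelled replicates 1 to 3, against 10.10, 10.48 and 10.23 for the Rhau KO label. Whether the labels were exchanged could not be settled. Every direction given here is that of the labels as deposited, and exchanged labels would turn each of them. The linear signal of each Y-linked gene was set against its own highest array (100%), and these percentages were averaged over the genes. The average ran from 1.23 to 39.3 under the wildtype label and from 59.6 to 100 under the Rhau KO label. The sex makeup of the samples thus moved with the label. Xist fell to 5.10 in replicate 3 labelled Rhau KO and was at least 12.37 in the other arrays. Y-linked signal of at least 39.3 stood beside Xist of 12.37 to 13.47 in 3 arrays (wildtype-labelled replicate 3, and Rhau KO-labelled replicates 1 and 2), which a single heart would not give, so the number of hearts behind an array is not known. Of 11 measured erythroid markers 8 fell (median -0.99), and their summed linear signal lay between 74015 and 92057 under the Rhau KO label against 98212 to 104925 under the wildtype label. Of 14 cardiomyocyte markers 4 fell and 0 rose, with sums of 300232 to 345395 against 343792 to 355817. Of 12 endothelial markers 5 rose and 0 fell, with sums of 15368 to 16684 against 13322 to 14422. Of 10 macrophage markers 2 rose, with sums of 3876 to 4706 against 2871 to 3119. Without Lyz2, which rose by 2.98, these sums overlapped at 2757 to 3368 against 2706 to 2961, and 8 of the 10 were not called. Epicardial markers (1 of 8 fell) had sums of 11255 to 12115 against 12322 to 13813, and mesenchyme markers (1 of 10 rose and 1 fell) had sums of 52297 to 57075 against 55114 to 56856. Every marker measured lay above the filter on low signal. The part of these differences in the results below was not tested. In whole hearts, fewer cells of a type and less RNA per cell cannot be told apart.

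As background, replication origins are bound by the origin recognition complex, on which Cdc6 and Cdt1 load the ring-shaped MCM helicase. Cdc45 and the GINS proteins activate the ring, and the clamp Pcna holds the polymerases on DNA. Entry into this phase is set by D-type and E-type cyclins with their kinases, which inactivate the retinoblastoma protein and release E2F transcription factors, while CDK inhibitors hold the kinases back. In mitosis Cdk1 with B-type cyclins, the Aurora and Polo kinases, motor proteins and the spindle checkpoint carry the chromosomes apart. Heart muscle cells still divide at this stage of development, as do endothelial, mesenchymal and blood cells.

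The promoters of these genes carried different short motifs according to role. They are shown because genes that share motifs went opposite ways in these arrays. RefSeq (build GRCm38.p6) held 49 promoter entries, from 250 bases before to 50 after a start, for 45 of the 57 genes. The 24 mitosis entries come from 22 genes, the 17 replication entries from 16 and the 8 G1/S entries from 7. Entries of the same gene were each counted, and those of Ect2 and of Prc1 overlap. Searched on both strands were the cell cycle homology region or CHR (TTTGAA or TTTAAA), the CCAAT box (CCAAT) and the E2F site (TTTCCCGC, TTTGGCGC, TTTCGCGC or TTTGCCGC). A CHR was found in 21 of 24 mitosis entries (87.5%), against 23.5% of 17 replication entries, 2 of 8 G1/S entries, 19.6% of the 12861 entries of tested genes and 27.6% of all 32851 entries. An E2F site was found in 8 of 17 replication entries (47.1%), against 4.17% of mitosis entries, 1 of 8 G1/S entries and 3.90% of tested-gene entries (2.26% of all). The CCAAT box stood in 83.3% of mitosis and 76.5% of replication entries, against 37.5% of G1/S, 37.3% of tested-gene and 37.4% of all entries. A possible G-quadruplex, 4 runs of GGG on either strand with 1 to 7 bases between them, was found in 7 mitosis entries (29.2%), 4 replication entries (23.5%) and 5 G1/S entries (62.5%), against 27.9% of tested-gene and 18.6% of all entries. These matches describe letters only, and binding was not measured.

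Below are 280 bases of promoter, 5′ to 3′ on the gene's strand, from 250 bases before the start to 30 after it, with CHR, CCAAT and E2F letters in capitals. Mki67 (chr7:135716350-135716629, minus strand) and Ttk (chr9:83834439-83834718, plus strand) fell in the arrays labelled Rhau KO. Ect2 (chr3:27153849-27154128, minus strand) rose, with the same 2 kinds of capitalised motif in its promoter. A possible G-quadruplex, not set in capitals, was found for Mki67 and Mcm2 but not for Ttk, Ect2 or Mcm7. Mcm2 (chr6:88898751-88899030, minus strand) rose and has a CHR and a CCAAT box but no E2F letters of this kind. Mcm7 (chr5:138171854-138172133, minus strand) holds E2F letters before and after its start, the latter overlapping a CCAAT box. The other RefSeq entry of Mcm7, not printed here, holds a CCAAT box but no E2F letters of this kind.
Mki67: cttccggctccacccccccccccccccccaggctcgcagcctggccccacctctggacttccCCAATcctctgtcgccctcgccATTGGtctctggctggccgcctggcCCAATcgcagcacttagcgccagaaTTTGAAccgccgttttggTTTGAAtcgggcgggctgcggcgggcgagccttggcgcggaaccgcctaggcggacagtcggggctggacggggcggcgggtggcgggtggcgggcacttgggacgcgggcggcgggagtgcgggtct
Ttk: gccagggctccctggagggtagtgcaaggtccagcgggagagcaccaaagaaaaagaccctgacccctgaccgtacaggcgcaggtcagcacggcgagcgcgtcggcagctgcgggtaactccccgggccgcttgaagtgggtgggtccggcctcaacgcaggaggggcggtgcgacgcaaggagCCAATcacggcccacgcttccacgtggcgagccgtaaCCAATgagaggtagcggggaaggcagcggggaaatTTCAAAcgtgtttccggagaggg
Ect2: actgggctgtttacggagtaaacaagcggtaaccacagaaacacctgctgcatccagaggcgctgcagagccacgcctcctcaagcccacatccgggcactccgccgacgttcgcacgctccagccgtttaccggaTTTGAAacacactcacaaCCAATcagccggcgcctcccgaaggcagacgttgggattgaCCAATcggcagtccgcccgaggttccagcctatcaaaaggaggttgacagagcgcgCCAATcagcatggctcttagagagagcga
Mcm2: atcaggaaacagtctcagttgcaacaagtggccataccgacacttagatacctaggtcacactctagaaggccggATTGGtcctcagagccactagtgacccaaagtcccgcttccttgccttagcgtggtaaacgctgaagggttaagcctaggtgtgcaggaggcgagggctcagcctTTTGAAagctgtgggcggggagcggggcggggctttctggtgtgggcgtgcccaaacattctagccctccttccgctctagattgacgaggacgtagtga
Mcm7: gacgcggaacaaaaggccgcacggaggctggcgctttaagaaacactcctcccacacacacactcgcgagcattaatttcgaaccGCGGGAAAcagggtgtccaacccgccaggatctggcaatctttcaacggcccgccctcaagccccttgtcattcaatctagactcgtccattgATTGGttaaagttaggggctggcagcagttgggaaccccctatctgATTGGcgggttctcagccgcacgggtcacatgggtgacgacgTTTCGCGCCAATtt

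**Figure D1:**
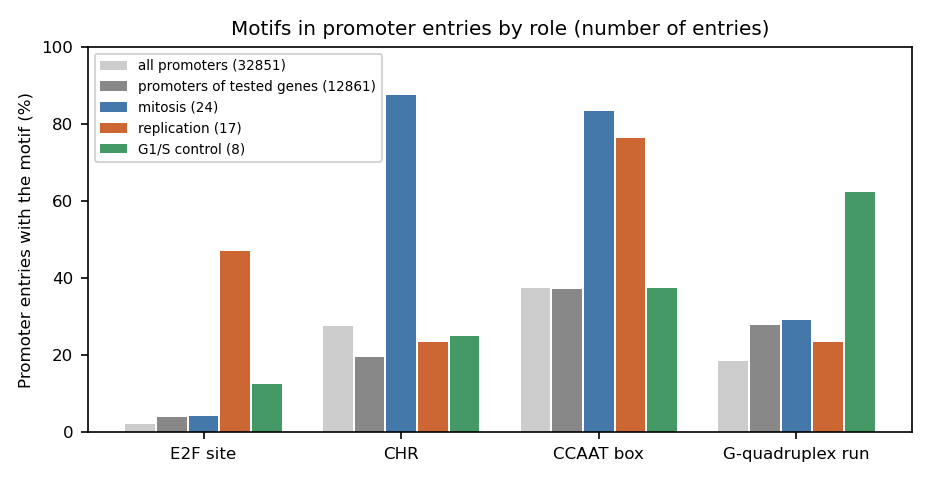
Share of promoter entries (percent) that hold each motif, for all RefSeq entries, entries of tested genes, and the 3 roles, with the number of entries in the key. The CHR stands in 87.5% of mitosis entries and the E2F site in 47.1% of replication entries.

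Across the 56 measured genes, 6 rose and 6 fell in the arrays labelled Rhau KO (limma adjusted p under 0.05). That is 21.4% called, against 19.0% of all genes tested (8.20% higher and 10.8% lower), so the share was near the background. The median difference was 0.02 on the log2 scale, beside 0.01 over all tested genes, and 55 of the 56 differed by less than 0.5. Groups of arrays did not overlap for 25 of the 56 (44.6%), against 37.1% of all tested genes. The exception in size was Mki67. Centring each array on its median shifted all differences down and gave 532 higher and 1846 lower genes in place of 1018 and 1336, so small differences near 0 depend on the scaling.

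**Figure D2:**
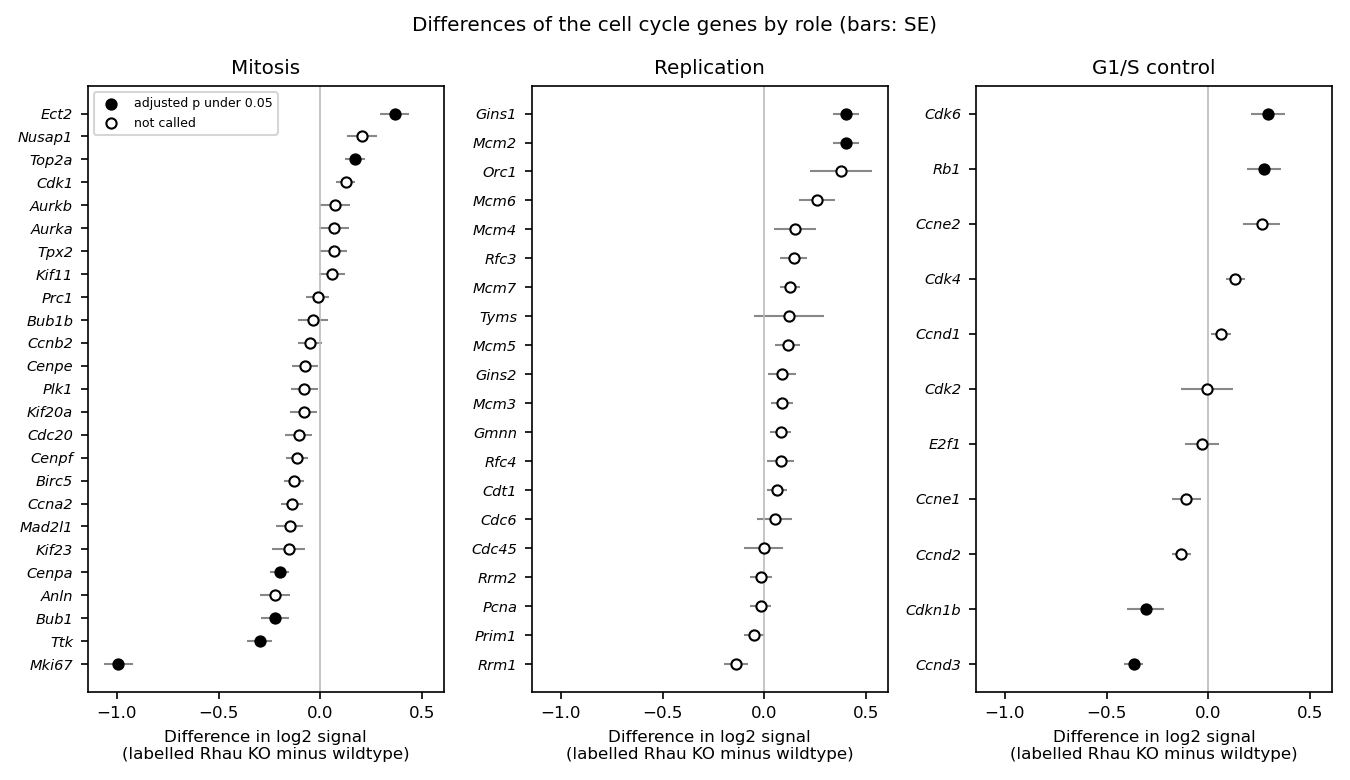
Difference in log2 signal (labelled Rhau KO minus labelled wildtype, n = 3 arrays each) with its SE for the 56 genes, by role. Filled points passed the test. Mki67 at -0.99 stands apart from the other mitosis genes, which lie between -0.30 and 0.37.

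Among the mitosis genes, 2 of 25 rose, 4 fell and 19 did not pass, and the median difference was -0.08. Mki67, which encodes the Ki-67 protein that coats mitotic chromosomes and is a common marker of cycling cells, read 13.12, 13.12 and 13.15 under the wildtype label. The Rhau KO label gave 12.09, 12.00 and 12.32. All 3 arrays labelled Rhau KO lay far below the others, and the difference of -0.99 (SE 0.07) is a 1.99-fold lower level with limma adjusted p = 9.76e-06. A difference of at least this size was found for 166 of the 12416 tested genes. A single probe set measured Mki67. The call was kept in all 15 other settings, between -1.18 and -0.93, including the fit that adds Y-linked signal per array as a covariate (adjusted p = 0.00608), where no other of the 57 genes was called.

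No other mitosis gene moved to that extent. The 24 others ranged from -0.30 to 0.37. Top2a, the topoisomerase that untangles sister chromatids and like Mki67 a standard marker of proliferation, went the opposite way. Its signal was 12.32, 12.26 and 12.37 for the wildtype label against 12.53, 12.42 and 12.51, a rise of 0.17 (SE 0.05, adjusted p = 0.0374). The groups did not overlap, by a narrow margin. The call was lost in 4 of 6 fits that left out an array, and the other probe set above the filter differed by 0.21 without a call. Median centring (0.10), no filter, the mean of its probe sets (0.09), eBayes without trend and the Y-linked covariate also ended the Top2a call.

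Cdk1, the kinase that drives entry into mitosis, differed by 0.12 (SE 0.05, adjusted p = 0.0914), with 12.24, 12.22 and 12.30 against 12.42, 12.34 and 12.37. Each array labelled Rhau KO was the higher, without a call. With quantile normalization the difference was 0.15 and passed (adjusted p = 0.0382). Its partner cyclin genes differed by -0.05 for Ccnb2 and -0.14 for Ccna2 without a call. A second Ccna2 probe set stood at 11.88, 11.83 and 11.92 against 11.62, 11.61 and 11.73 and was called (-0.22, adjusted p = 0.0216 over all probe sets).

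The kinases of the spindle differed little. Plk1, the Polo-like kinase, was at 10.40, 10.36 and 10.42 against 10.20, 10.36 and 10.39, and the groups overlapped. Aurkb, the kinase of the chromosomal passenger complex, was at 9.74, 9.71 and 9.78 against 9.70, 9.87 and 9.87, again with overlap. Its second probe set differed by 0.31 (adjusted p = 0.0629). Aurka, the centrosomal Aurora kinase, differed by 0.07, its activator Tpx2 by 0.07, and the passenger subunit Birc5, known as survivin, by -0.13 without a call.

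Of the spindle checkpoint, which delays chromosome separation until every chromosome is attached, Ttk and Bub1 fell. Ttk, the kinase that starts the signal, stood at 10.25, 10.20 and 10.16 against 9.88, 9.89 and 9.95, a fall of 0.30 on the log2 scale (SE 0.06, adjusted p = 0.00826). The arrays did not overlap, and the call was kept whichever array was left out and lost with the Y-linked covariate. The dimmer Ttk probe set stood at 0.21, uncalled, and the mean of both at -0.04. Bub1, a kinetochore kinase, stood at 11.38, 11.21 and 11.32 against 10.95, 11.11 and 11.17. Its difference of -0.22 (SE 0.07) passed narrowly at adjusted p = 0.0495, was lost in 4 of 6 fits that left out an array, and was 0.09 without a call on the other Bub1 probe set. Mad2l1 (-0.15), Bub1b (-0.04) and Cdc20 (-0.11), the checkpoint proteins that hold back the anaphase complex and its activator, did not pass.

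Of the centromere genes Cenpa, the histone variant that marks the centromere, fell. It was at 12.39, 12.33 and 12.43 against 12.16, 12.21 and 12.17, a difference of -0.20 (SE 0.05, adjusted p = 0.0149) without overlap. A second Cenpa probe set above the filter differed by 0.14 without a call. The call was lost without replicate 1 or replicate 3 labelled wildtype, and the mean of the Cenpa probe sets differed by -0.01. Cenpe, a kinetochore motor, gave opposite signs on its probe sets, at -0.07 without a call and at 0.33 with one (adjusted p = 0.0356 over all probe sets), so no direction is given for it. Cenpf, a large kinetochore protein, stood at -0.11 without a call.

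Ect2, the exchange factor that activates RhoA to build the contractile ring of cytokinesis, rose. It was at 10.63, 10.66 and 10.80 against 11.01, 11.19 and 10.99. The groups did not overlap, and the difference of 0.37 (SE 0.07) had adjusted p = 0.00528. The call was kept in each fit without 1 array and lost with the Y-linked covariate, at 0.22. The other genes of the central spindle and cleavage furrow did not pass: Anln, the scaffold of the ring, stood at -0.22, the kinesin genes Kif23 and Kif20a at -0.16 and -0.08, and the microtubule bundler Prc1 at -0.01. Kif11, the motor that pushes spindle poles apart, stood at 0.06, and Nusap1, a spindle-associated protein, at 0.21 with adjusted p = 0.0758.

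**Figure D3:**
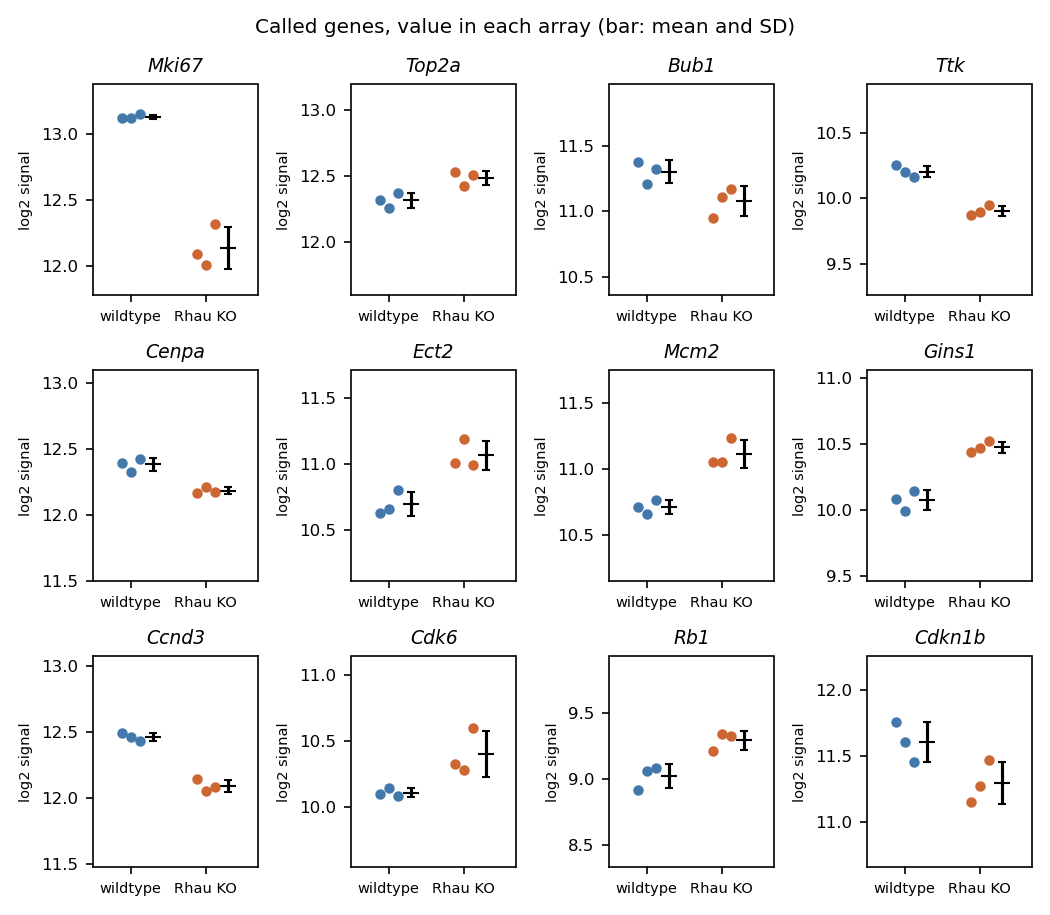
Log2 signal of the 12 called genes in each of the 6 arrays, as points, with the mean and SD of each label as a bar (n = 3). All vertical axes span the same length, and the labels overlap only for Cdkn1b.

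Few replication genes passed the test. Of 20 measured, 2 rose, 0 fell and 18 did not pass, which is 10.0% called by limma, against 19.0% of all tested genes. At an unadjusted limma p under 0.05, 5 were higher and 1 lower. Mitosis genes gave 4 higher and 8 lower at that limit, and G1/S genes 4 and 3. The share of all genes at that limit was not counted, so no excess can be read from these counts. By sign alone 15 replication genes were higher and 5 lower, where 51.9% of all tested genes were higher. The median was 0.09. With median centring 13 were higher and 7 lower (median 0.02), and the Y-linked covariate gave 9 and 11 (median -0.02).

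Mcm2, a subunit of the replicative helicase, read 10.72, 10.66 and 10.77 for the wildtype label against 11.06, 11.06 and 11.24 for the Rhau KO label. The groups were well apart, with a rise of 0.40 (SE 0.07, 1.32-fold, adjusted p = 0.00203). The second Mcm2 probe set also rose, by 0.35, from 10.48, 10.42 and 10.39 to 10.82, 10.77 and 10.76. Gins1, a subunit of the GINS complex that activates this helicase, was at 10.08, 9.99 and 10.15 against 10.44, 10.47 and 10.52. It rose by 0.40 (SE 0.06, adjusted p = 0.00177), and no arrays overlapped. Both calls were kept whichever array was left out and lost with the Y-linked covariate, at 0.19 for Mcm2 and 0.24 for Gins1. The dim second Gins1 probe set stood at 0.31, uncalled, as was the mean of its probe sets.

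The other helicase subunits had positive differences without a call on their brightest probe sets. Mcm6 stood at 0.26 (adjusted p = 0.0644), Mcm4 at 0.15, Mcm7 at 0.13, Mcm5 at 0.11 and Mcm3 at 0.09. For Mcm7 all 4 probe sets were higher without overlap. The 2 dimmest passed at 0.39 and 0.25, the next differed by 0.19 (adjusted p = 0.0661) and the brightest by 0.13 (adjusted p = 0.133 over all probe sets), so the difference was smaller the brighter the probe set. Whether bright probe sets were near saturation was not tested.

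Licensing factors did not pass. Cdc6, the loader, was at 9.17, 9.12 and 9.32 against 9.22, 9.32 and 9.22, with the groups mixed. Cdt1 (0.06) and its inhibitor Gmnn, geminin (0.08), likewise did not pass. Orc1, the largest origin recognition subunit, stood at 7.06, 7.16 and 7.37 against 7.58, 7.64 and 7.50, without overlap but with an adjusted p of 0.113 for a difference of 0.38 (SE 0.15). Its second probe set differed by -0.05.

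At the fork Pcna, the sliding clamp, was at 13.66, 13.64 and 13.68 against 13.60, 13.58 and 13.74, which overlap. Its difference was -0.02 (SE 0.05). Cdc45 (-0.0028), Gins2 (0.09), the clamp loader genes Rfc3 (0.14) and Rfc4 (0.08) and the primase gene Prim1 (-0.05) did not pass. Nor did the genes that supply deoxynucleotides: Rrm2, the regulated subunit of ribonucleotide reductase, was at 12.98, 12.90 and 13.02 against 12.86, 13.04 and 12.95, Rrm1 differed by -0.14, and the thymidylate synthase gene Tyms by 0.12 (SE 0.17).

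A wider list of 47 replication genes gave 8 higher and 0 lower of 44 tested (18.2%, against 19.0% of all tested genes). Above 0 by sign were 41, where 51.9% of all tested genes were, and the median was 0.13. By sign 32 were above 0 with median centring (median 0.06) and 28 with the Y-linked covariate (median 0.05). At an unadjusted limma p under 0.05, 14 were higher and 1 lower. Without a count over all genes at that limit, no excess can be read from this. Exo1, an exonuclease of repair and replication (0.36), Rpa3 of the single-strand binding complex (0.33), the clamp loader gene Rfc5 (0.29) and Dut, which removes dUTP (0.29), rose the most. Rpa3 stood at 11.01, 10.99 and 11.05 against 11.29, 11.31 and 11.44, and Dut at 11.67, 11.67 and 11.64 against 11.88, 11.95 and 12.01. Both were without overlap and kept their call in each fit without 1 array, but not with the Y-linked covariate, while Exo1 (adjusted p = 0.0498) lost it in 5 of 6 such fits and Rfc5 in 3. The count of 8 was 3 with median centring or eBayes without trend, 4 with the mean of probe sets, 5 with no filter or with every probe set tested, 3 without replicate 2 labelled wildtype, 4 without replicate 3 labelled wildtype or replicate 1 labelled Rhau KO, 5 without replicate 1 labelled wildtype or replicate 3 labelled Rhau KO, and 0 with the Y-linked covariate.

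By sign the wider mitosis list had 27 genes higher and 21 lower. At an unadjusted limma p under 0.05 it gave 5 higher and 6 lower, without a count over all genes. By limma adjusted p it gave 1 higher and 1 lower of 48 tested (4.17%, against 19.0% of all tested genes). Both are condensin subunits, which compact mitotic chromosomes: Smc2 rose by 0.24 and Smc4 fell by 0.17 on the log2 scale. The Smc2 call was lost in 3 of 6 fits that left out an array, with median centring, under eBayes without trend, and under the Y-linked covariate (0.03), and the mean of its probe sets was 0.54. The Smc4 call was lost in 4 of 6 such fits, with eBayes without trend and with that covariate. For Smc2, 3 of its 4 other probe sets were also called higher, at 0.51 to 0.93. For Smc4 the other probe sets differed by 0.11 without a call and 0.19 with one (adjusted p = 0.0478 over all probe sets), opposite to the brightest, so its direction depends on the probe set. Over all 22796 probe sets above the filter, 14.6% were called.

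**Figure D4:**
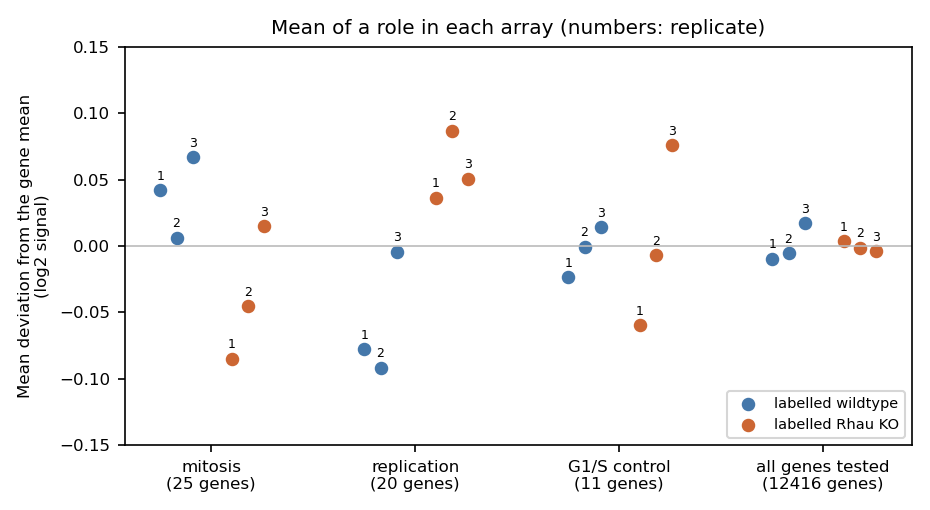
Mean deviation of a role's genes from their own 6-array mean (log2 signal) in each array, numbered by replicate, beside the same over all tested genes. For replication the 3 arrays labelled Rhau KO (0.04 to 0.09) lie above the wildtype-labelled ones (-0.09 to -0.0044), whereas for mitosis and G1/S control the labels overlap.

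Averaged over a role, the labels separated for replication alone, and by a narrow margin (-0.0044 against 0.04 for the nearest arrays). These array means were not recomputed in other settings. The replication median was 0.02 with median centring and -0.02 with the Y-linked covariate, so the separation may depend on scaling and on sex makeup, which was not tested. Replication genes averaged -0.08, -0.09 and -0.0044 relative to their own means for the wildtype label, against 0.04, 0.09 and 0.05 for the Rhau KO label. Mitosis genes lay at 0.04, 0.0063 and 0.07 against -0.08, -0.05 and 0.01, with replicate 3 labelled Rhau KO inside the range of the other label. All tested genes together stayed between -0.0097 and 0.02. Without the called genes the replication values were -0.06, -0.07 and 0.01 against 0.02, 0.08 and 0.02. Those of mitosis were then 0.02, -0.0090 and 0.05 against -0.07, -0.03 and 0.04, which overlap.

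Among genes that control the step from G1 to S, calls went in both directions. Of 11 measured, 2 rose, 2 fell and 7 did not pass (36.4% called, against 19.0% of all tested genes), with a median of -0.0050. Higher and lower counts were 0 and 1 with no filter, and 0 and 0 with the Y-linked covariate. Ccnd3, a D-type cyclin that activates Cdk4 and Cdk6, read 12.49, 12.46 and 12.43 against 12.14, 12.05 and 12.08. It fell by 0.37 on the log2 scale (SE 0.05, adjusted p = 4.58e-04) without overlap. The call was kept in each fit without 1 array and lost with the Y-linked covariate. Its dimmer probe sets, at mean signals of 6.43 and 6.06, differed by 0.48 and -0.44 without a call, and the mean of its probe sets by -0.11 (adjusted p = 0.635).

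The other D-type cyclins did not pass. Ccnd1 was at 11.62, 11.72 and 11.68 against 11.77, 11.73 and 11.71, which overlap, and its other probe sets differed by 0.0058 and -0.0032. Ccnd2 was at 13.68, 13.62 and 13.68 against 13.53, 13.46 and 13.59, lower on each array (-0.13, adjusted p = 0.0754) without a call, and it passed with median centring at -0.20 (adjusted p = 0.0306). Of its 6 other probe sets, 5 had negative differences, down to -0.24, and none passed. The E-type cyclins, partners of Cdk2 at S-phase entry, differed by -0.11 for Ccne1 (9.73, 9.76 and 9.87 against 9.63, 9.71 and 9.68) and by 0.26 for Ccne2 (adjusted p = 0.0697), without calls.

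Cdk6, a kinase partner of the D-type cyclins, rose. It was at 10.10, 10.15 and 10.08 against 10.33, 10.28 and 10.60, with replicate 3 labelled Rhau KO the highest. The difference of 0.29 (SE 0.08, adjusted p = 0.0348) was 0.19 without that array and no longer called, and the call was also lost without any 1 of the arrays labelled wildtype. Cdk4, its close relative, differed by 0.13 without a call on its brightest probe set (adjusted p = 0.0735), and by 0.15 and 0.21 with a call on the others. Cdk2 was at -0.0050 (SE 0.13), its values under the Rhau KO label spreading from 10.75 to 11.40.

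Rb1, the retinoblastoma protein gene, stood at 8.92, 9.06 and 9.08 against 9.21, 9.34 and 9.33. The groups did not overlap, yet the call for its rise of 0.27 (SE 0.09, adjusted p = 0.0475) was lost whichever array was left out. E2f1, an activator of S-phase genes, was at 8.85, 8.89 and 8.97 against 8.87, 8.84 and 8.90, which overlap, with a difference of -0.03 (SE 0.09).

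CDK inhibitors, the brakes of this step, were singled out as a family after their values were seen. Of the 7 family genes in the lists 6 were tested, of which 5 fell and 1 rose, beside 19.0% of all tested genes called. Several other settings called fewer of them, and the Y-linked covariate left 1 higher and 1 lower. Cdkn1b, which encodes p27, was at 11.76, 11.60 and 11.45 against 11.15, 11.27 and 11.47. Replicate 3 labelled Rhau KO lay just above replicate 3 labelled wildtype, so the groups overlap. The fall of 0.31 on the log2 scale (SE 0.09, adjusted p = 0.0383) was lost in 4 of 6 fits that left out an array, and the dim second probe set differed by 0.36 without a call, so that the mean of its probe sets differed by 0.03.

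Cdkn2c, the p18 inhibitor of Cdk4 and Cdk6, stood at 10.03, 9.99 and 10.05 against 9.19, 9.38 and 9.43. That fall of 0.69 on the log2 scale (SE 0.08, 1.61-fold, adjusted p = 2.68e-04) showed no overlap and was called in every setting tried, the Y-linked covariate included (-0.92). Cdkn2d, the p19 inhibitor, was at 11.62, 11.76 and 11.81 against 11.35, 11.44 and 11.38 and fell by 0.34 on the log2 scale (adjusted p = 0.00306). The Cdkn2d call was lost with the Y-linked covariate. Cdkn1a, which encodes p21, was at 9.44, 9.67 and 9.69 against 9.23, 9.26 and 8.89 and fell by 0.47 (adjusted p = 0.0153), with 0.03 on its other probe set. Its call was lost without replicate 2 or replicate 3 labelled wildtype, with eBayes without trend, with the mean of its probe sets (-0.22) and with the Y-linked covariate. Cdkn2b, the p15 inhibitor, was at 6.99, 7.10 and 7.45 against 6.49, 6.43 and 6.55, near the filter level of 5.90. Its fall of 0.69 on the log2 scale (adjusted p = 0.0320) was 0.44 in size with a pseudocount of 64 (-0.4432). The call was lost in 5 of 6 fits that left out an array, with no filter (adjusted p = 0.0689) and with the Y-linked covariate.

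Cdkn1c, which encodes p57 and is expressed from the maternal allele, was the exception. It stood at 13.29, 13.20 and 13.17 against 13.82, 13.60 and 13.72, a rise of 0.49 (SE 0.06, adjusted p = 3.55e-04) without overlap. The call was kept in all settings tried, at 0.42 to 0.65. Cdkn2a, between 2.16 and 4.45, lay below the filter and was not tested. The mean of all probe sets left 1 of these genes higher and 3 lower as calls, as did no filter and eBayes without trend, the fit without replicate 2 labelled wildtype 1 and 2, the other fits without 1 array 1 and 3 or 4, and the Y-linked covariate 1 and 1.

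**Figure D5:**
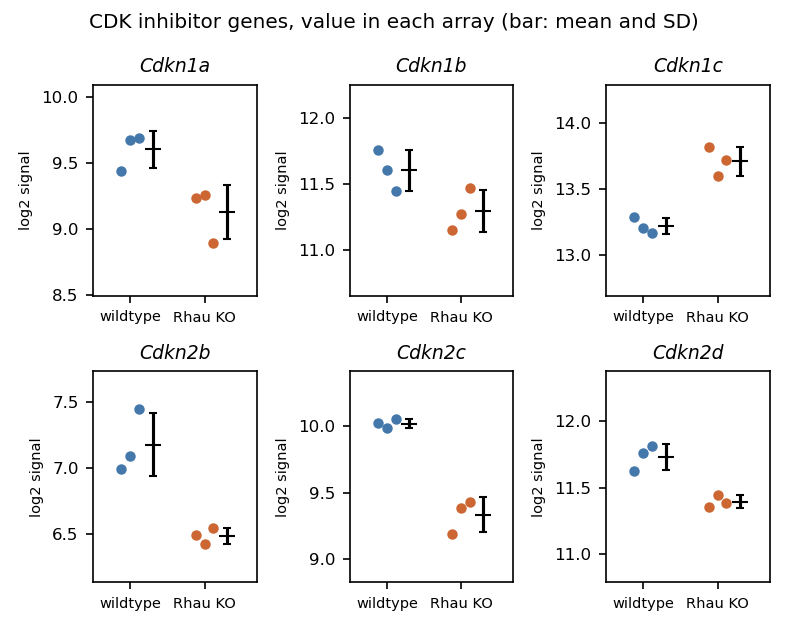
Log2 signal of the 6 tested CDK inhibitor genes in each array, as points, with the mean and SD of each label as a bar (n = 3). Cdkn1c is higher under the Rhau KO label and the other 5 are lower, with overlap for Cdkn1b alone.

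In the wider list of G1/S genes, of which the other CDK inhibitors are part, 6 rose and 6 fell of 31 tested. That is 38.7%, against 19.0% of all tested genes. With an unadjusted limma p under 0.05 as the limit, 6 were higher and 8 lower, without a count over all genes. Mycn, a Myc family factor that drives growth of the embryonic heart wall, rose most, from 10.19, 10.45 and 10.06 to 11.17, 11.01 and 10.85. Its difference of 0.78 (SE 0.10, adjusted p = 6.46e-04) was called in every fit without 1 array and under the Y-linked covariate (1.26), but the mean of its probe sets, 0.46, was not. A second Mycn probe set also rose, by 0.56, while the dimmest differed by 0.05.

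Skp2, the ubiquitin ligase subunit that marks p27 for destruction, rose by 0.38 (SE 0.07, adjusted p = 0.00349), from 10.47, 10.51 and 10.62 to 10.84, 11.03 and 10.87. Its 5 other probe sets differed by 0.33 to 0.57, and 3 of them were called. With the Y-linked covariate the difference was 0.22 and not called (adjusted p = 0.527). Cdc34, a ubiquitin-conjugating enzyme, fell by 0.39 on the log2 scale, from 12.10, 12.02 and 12.19 to 11.66, 11.71 and 11.75 (adjusted p = 8.17e-04). E2f5, a repressor-type E2F, rose by 0.34 on its brightest probe set (adjusted p = 0.0166), whereas the next brightest differed by -0.0099 without a call. The E2f5 call was lost in 4 of 6 fits that left out an array, with the mean of its probe sets, with the Y-linked covariate and in eBayes without trend. The other genes of this list that passed were Fbxw7, Wee1 and E2f6.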

How the data were processed

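Total RNA of embryonic hearts was hybridised to 6 arrays. Values in the deposited table are log2 signals per probe set, which the authors made with MAS5, per the submitters' processing notes. On the linear scale each array had a 2% trimmed mean of 500. No pseudocount was added. Arrays carry no read depth, and their number limits the precision. Array medians lay between 6.68 and 6.80.

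Of 45101 probe sets, 64 controls were left out; 34945 name 1 gene, 932 several and 9160 none. Names were updated through Entrez identifiers (34741 in RefSeq, GRCm38.p6). The brightest probe set stood for a gene, and genes below 5.90, the level under which 40% of probe sets lie, were left out. Labelled Rhau KO was compared with labelled wildtype (n = 3 each) by limma 3.58.1 in R 4.3.3 (lmFit, eBayes with trend), two-sided, with Benjamini-Hochberg adjustment over 12416 genes at 0.05. Single probe sets were adjusted over 22796, an alternative chosen after seeing the data. Differences are log2, labelled Rhau KO minus labelled wildtype. Each SE is that of the difference, from the fit. Nothing states that same-label samples come from separate litters, so p-values measure the spread between these arrays.

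On simulated arrays of these 12416 genes the fit recovered 56.7% of 67 genes with a 1.5-fold change. Of 67 with a 2-fold change it recovered 80.6%, and 6.02% of its calls were unchanged genes. With 66 more changed 4-fold, far fewer genes were changed than the 2354 called in these data. The simulated noise was drawn independently for each gene and array. These shares therefore need not hold for the arrays described here. Most differences described here are smaller than 1.5-fold. The genes, lists and tests were chosen with earlier results of these data known. Values in every array are given for called genes and for Mki67, Top2a, Cdk1, Aurkb, Plk1, Mcm2, Pcna, Cdc6, Rrm2, Ccnd1, Ccnd2, Ccne1, E2f1, Rb1 and Cdkn1b; of the wider lists, up to 4 called genes a list and direction are given. Genes or probe sets named beyond that were chosen after their values were seen. Tables and plots used Python 3.11.15, pandas 2.3.3 and matplotlib 3.10.9.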

Additional observations from a re-analysis of the deposited data

How the results depend on the processing

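With 3 arrays a label and differences mostly under 0.5 on the log2 scale, several calls lay near the threshold. The pseudocount of 64 changed none of the counts of higher or lower genes by over 1.5 times, and quantile normalization changed none either, though it ended the calls of Bub1, Rb1 and Exo1 while Cdk1 passed. With median centring 532 genes were higher over all genes, and the counts were 1 higher and 8 lower for mitosis, 1 lower for replication and 0 higher for G1/S control. The mean over a gene's probe sets left 608 higher and 824 lower in all, 1 higher and 2 lower for mitosis, and 1 higher and 0 lower for G1/S control; it turned Cdkn1b to 0.0256 and Smc4 to 0.0427, both uncalled. eBayes without trend gave 614 and 878 over all genes, 1 and 2 for mitosis, and 0 and 1 for G1/S control. With no filter, mitosis had 1 higher, and G1/S control 0 higher and 1 lower. The Y-linked signal as a covariate gave 46 and 132 over all genes, 0 and 1 for mitosis, 0 higher for replication, and 0 and 0 for G1/S control. Testing every probe set, chosen after seeing the data, gave 1 higher for G1/S control. The causes were not tested.

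Leaving out 1 array gave 590 to 802 higher and 916 to 1206 lower over all genes. Mitosis genes had 1 to 2 higher and 2 to 6 lower, replication genes 2 to 3 higher, and G1/S control genes 0 to 1 higher and 1 to 3 lower. Replicate numbers are shared between the labels, but deviations of same-numbered arrays correlated at only -0.01, 0.04 and 0.01 across genes, and 3 of 6 arrays correlated best with their own number, so the numbers were not taken as pairs. With the replicate number as a block, 955 genes were higher and 1300 lower, and G1/S control had 1 lower in place of 2.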
